A study of Mus musculus with 4 samples.

Results

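Pigment production was examined through 10 genes of the melanocyte, the pigment cell of skin and hair, in whole back skin of Bmal1 knockout and heterozygous mice. The genes were chosen by name for their roles in pigment cells. They are Mitf, Mc1r, Tyr, Tyrp1, Dct, Pmel, Mlana, Slc45a2, Oca2 and Slc24a5, and all 10 were present among the 19938 genes that the array table names through 21789 probe sets with 1 gene symbol. Mitf had 2 probe sets and every other gene had 1, so 11 probe sets were read. Each was measured in 2 mice whose germline lacked both copies of Bmal1 (KO) and in 2 mice with 1 mutant and 1 wild-type allele (het). All 4 mice were C57Bl6, were taken at postnatal day 22 with follicles labelled as telogen, when hair follicles rest between growth phases, and were sampled at ZT22, late in the dark phase. No mouse with 2 wild-type alleles was compared, so the het group carries a mutant allele as well. Each mouse gave 1 Affymetrix whole-transcript array, and the design text calls the mice littermates.

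Melanocytes of the hair follicle make pigment while the follicle grows and stop when it regresses, and between growth phases the lineage persists as unpigmented stem cells. The transcription factor MITF drives the lineage and switches on the pigment genes, and it is itself induced when melanocortin binds the receptor MC1R and raises cyclic AMP. Tyrosinase (Tyr) catalyses the first step of melanin synthesis, and its relatives Tyrp1 and Dct act later in the same pathway. Pmel forms the fibrils on which melanin is laid down, Mlana is a melanosomal membrane protein needed for the maturation of Pmel, and Slc45a2, Oca2 and Slc24a5 are membrane transporters that set the ionic conditions for the enzymes.

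Promoter letters are shown first because MITF binds E-box sequences, of which the M-box is an extended form. The genes were chosen as pigment genes, which MITF switches on, so their choice was not independent of such letters. RefSeq promoter windows of the GRCm38.p6 build, 250 bases before to 50 bases after each start site, were at hand for 7 of the 10 genes, and the 3 without one are Pmel, Mlana and Slc45a2. The letters CATGTG, read on both strands, were found in the window of 6 of these 7 genes, and in 14.2% of all 32851 promoter windows. The longer TCATGTG, which contains the same letters, was found in 5 of the 7 genes and in 3.77% of all windows. The longest stretch around CATGTG that Tyr and Tyrp1 share is AGTCATGTGCT, known as the M-box, and it was found in 7 of all 32851 windows (0.0213%), these 2 included. It was taken from these 2 promoters, so its presence there was fixed by its choice. The shorter CATGTG and TCATGTG lie within it, so their counts of 6 and 5 genes include Tyr and Tyrp1. The palindromic E-box CACGTG, which the partners BMAL1 and CLOCK bind, was found in 0 of the 7 genes and in 7.15% of all windows. A gene with several windows was counted once, while the shares count windows. A match describes letters in this window only.

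The 3 promoters of the melanin enzymes are printed whole, 5′ to 3′ on the strand of the gene, with every match to TCATGTG or to the full M-box in capitals.
Tyr, chr7:87493463-87493762, minus strand: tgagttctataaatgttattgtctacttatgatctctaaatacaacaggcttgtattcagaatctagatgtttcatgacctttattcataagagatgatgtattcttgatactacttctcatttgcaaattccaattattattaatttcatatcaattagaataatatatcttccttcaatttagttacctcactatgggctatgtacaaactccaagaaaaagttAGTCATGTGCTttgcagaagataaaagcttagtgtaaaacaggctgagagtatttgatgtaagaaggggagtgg
Tyrp1, chr4:80833963-80834262, plus strand: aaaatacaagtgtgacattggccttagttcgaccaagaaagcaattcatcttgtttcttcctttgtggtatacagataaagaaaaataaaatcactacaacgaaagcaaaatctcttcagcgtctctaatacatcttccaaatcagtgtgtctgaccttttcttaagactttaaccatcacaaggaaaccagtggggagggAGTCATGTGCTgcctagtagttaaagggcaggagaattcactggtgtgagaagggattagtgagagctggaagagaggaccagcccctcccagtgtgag
Dct, chr14:118052197-118052496, minus strand: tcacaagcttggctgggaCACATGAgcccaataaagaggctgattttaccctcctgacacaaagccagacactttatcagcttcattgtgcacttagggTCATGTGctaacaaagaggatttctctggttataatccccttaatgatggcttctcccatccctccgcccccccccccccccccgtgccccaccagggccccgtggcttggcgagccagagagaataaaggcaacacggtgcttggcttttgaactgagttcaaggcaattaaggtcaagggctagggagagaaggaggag

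Counted from the start site, the M-box began at -24 in Tyr and at -49 in Tyrp1. Dct held TCATGTG beginning at -151 and the same letters on the other strand beginning at -232.

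The other genes with a match are shown as 40-base windows, with every CATGTG or its reverse complement in capitals.
Mc1r, chr8:123407014-123407053, plus strand: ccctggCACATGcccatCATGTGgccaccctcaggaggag
Oca2, chr7:56239556-56239595, plus strand: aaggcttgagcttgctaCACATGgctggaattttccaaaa
Slc24a5, chr2:125068097-125068136, plus strand: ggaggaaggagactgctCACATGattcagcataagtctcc

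Mc1r held both directions of the letters, beginning at -62 and -51. Mitf had 3 annotated start sites, of which the most downstream is that of the melanocyte isoform, and none of the 3 windows held CATGTG. The most downstream window held the cyclic AMP response element TGACGTCA, beginning at -153, through which MC1R signalling is known to act on Mitf. That element was found in 1.79% of all windows. It is shown in capitals.
Mitf, chr6:97991613-97991652, plus strand: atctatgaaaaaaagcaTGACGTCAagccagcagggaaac

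**Figure D1:**
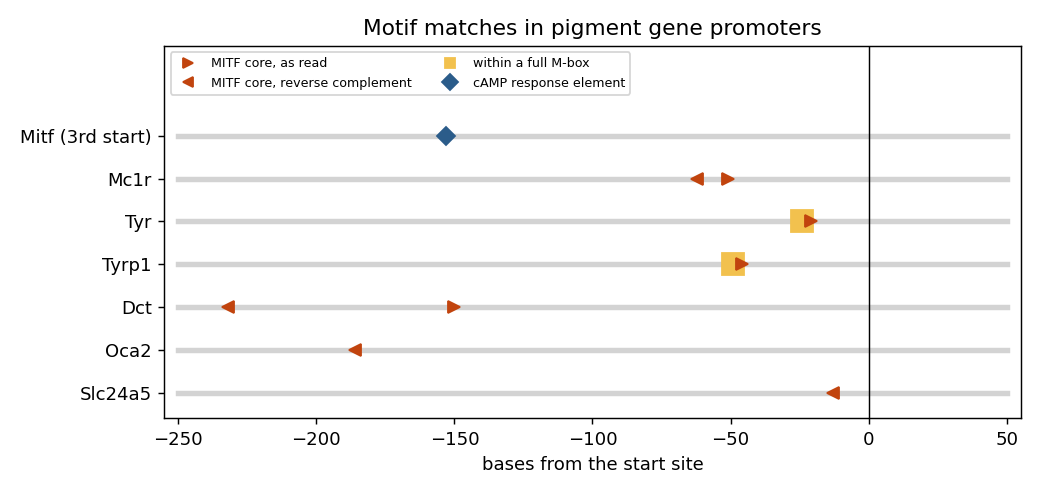
Matches in the promoter windows of the 7 genes with a RefSeq window, as the distance in bases of the first letter of each match from the start site (0). Triangles show the 6-letter core in either direction, squares a full M-box and the diamond the cyclic AMP response element. The full M-boxes of Tyr and Tyrp1 begin at -24 and -49, and Mitf is shown for its most downstream start site.

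All values below are log2 signals after quantile normalization of the 4 arrays, and differences are KO minus het. Probe sets were tested if their mean signal exceeded 6.67, the 25th percentile over probe sets with 1 symbol. Of the 10 genes 8 passed this filter. Tyr, Oca2 and the second Mitf probe set lay below it, and their intervals come from the same fit run without the filter. Of the 16341 tested probe sets, 323 had a limma adjusted p under 0.05 (1.98%), 241 higher and 82 lower in KO. That count was 0 when probe sets with several symbols, or all probe sets, were tested too, 77 without KO array 1 and 986 without het array 1. With the values as deposited 459 were higher and 85 lower, and after median centring 780 were higher and 133 lower. None of the 8 pigment genes above the filter was among the 323.

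The genotype and tissue labels were checked on other genes. Arntl, the gene symbol of Bmal1, read 8.29 and 8.16 in KO, against 8.90 and 9.08 in het, a difference of -0.76 (SE 0.12, limma adjusted p = 0.015), and the adjusted p was 0.102 when probe sets with several symbols were tested too and 0.303 with all probe sets. The KO signal was thus still 58.8% of the het signal. The probe set may hold probes outside the deleted part, which was not tested. All 10 keratinocyte genes of a list that included Krt5, Krt14 and Krt10 lay above the filter, with 0 at an adjusted p under 0.05 and a median difference of 0.16, which was -0.10 without het array 2 and 0.02 without KO array 1. The first axis of variation, with 59.2% of the variance, placed the KO arrays at 20.0 and 10.9 and the het arrays at -7.94 and -22.9. The second axis, with 24.9%, set het array 1 apart at 17.4. On it het array 2 lay at -9.62 and the KO arrays at 0.36 and -8.17. Het array 1 correlated at 0.982 with het array 2 and at 0.980 with KO array 2.

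Mitf, the regulator, did not pass the test. Its main probe set read 9.40 and 9.34 in KO, against 9.23 and 9.27 in het. Both KO arrays lay above both het arrays, by a small margin. The difference was 0.12 (SE 0.11, 95% interval -0.12 to 0.37, limma adjusted p = 0.59), or 1.09-fold, and with 1 array left out it ran from 0.09 to 0.16. It was larger under other scaling, 0.24 with the values as deposited and 0.27 after median centring. The median over all tested probe sets rose as well, from 0.02 to 0.065 as deposited and 0.10 after median centring. The second, dim probe set read 4.11 and 3.55 in KO, against 3.51 and 3.40 in het, and differed by 0.37 (95% interval -0.25 to 0.99). Here KO array 1 stood high, and without it the difference was 0.09.

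Mc1r, the melanocortin receptor, read 7.47 and 7.50 in KO, against 8.02 and 7.51 in het. Het array 1 stood high, and het array 2 lay just above both KO arrays. The difference was -0.28 (SE 0.17, 95% interval -0.65 to 0.09, limma adjusted p = 0.41), and it was -0.02 without het array 1 and -0.54 without het array 2.

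The melanin enzymes overlapped between the genotypes. Tyr read 5.81 and 5.98 in KO, against 5.95 and 6.01 in het, and it differed by -0.09 (95% interval -0.47 to 0.30). Its difference was -0.27 with the values as deposited and -0.23 after median centring. Tyrp1 read 8.10 and 8.40 in KO, against 7.90 and 8.50 in het, so the het arrays enclosed the KO arrays. The Tyrp1 difference was 0.05 (SE 0.19, 95% interval -0.37 to 0.47, limma adjusted p = 0.92). It was -0.25 without het array 1 and 0.35 without het array 2. Dct read 8.89 and 9.03 in KO, against 8.84 and 9.09 in het, again with the KO arrays inside the het range. Its difference was -0.0046 (SE 0.13, 95% interval -0.29 to 0.28, limma adjusted p = 0.99), and it turned to 0.11 with the values as deposited and to 0.15 after median centring. In the fit without the filter, the 95% intervals of KO over het ran from 0.758-fold to 1.41-fold for Tyrp1 and from 0.818-fold to 1.21-fold for Dct.

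**Figure D2:**
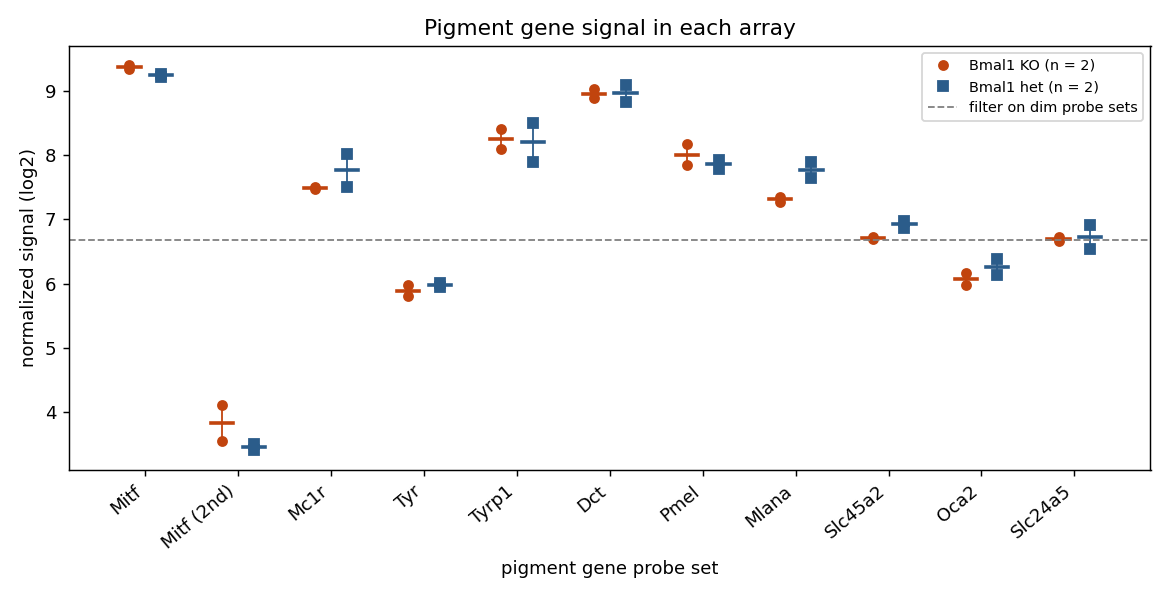
Normalized log2 signal of the 11 probe sets of the 10 pigment genes in each array, with KO (circles, n = 2) left of het (squares, n = 2), short bars for the means and lines joining the arrays of a genotype. The dashed line is the filter at 6.67. The Mlana KO arrays, at 7.27 and 7.36, lie below both het arrays, and the Tyrp1 and Dct KO arrays lie inside the het range.

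Mlana and Pmel, grouped as genes of the melanosome matrix and its maturation, had differences of opposite sign. Mlana read 7.27 and 7.36 in KO, against 7.90 and 7.64 in het, and both KO arrays lay below both het arrays. Its difference was -0.46 (SE 0.13, 95% interval -0.76 to -0.16), or 0.727-fold, with an unadjusted p of 0.0068 and a limma adjusted p of 0.113. With 1 array left out it ran from -0.59 to -0.33. Pmel read 7.85 and 8.17 in KO, against 7.93 and 7.78 in het. KO array 2 was high and KO array 1 lay between the het arrays. The Pmel difference was 0.15 (SE 0.14, 95% interval -0.15 to 0.46, limma adjusted p = 0.60), and it was -0.0076 without KO array 2.

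The transporters gave small negative values. Slc45a2 read 6.73 and 6.69 in KO, against 6.87 and 6.97 in het, with no overlap, and differed by -0.21 (SE 0.15, 95% interval -0.54 to 0.12, limma adjusted p = 0.49). Oca2 read 5.97 and 6.16 in KO, against 6.13 and 6.38 in het, and differed by -0.19 (95% interval -0.59 to 0.21). Slc24a5 read 6.66 and 6.73 in KO, against 6.55 and 6.92 in het. Its KO arrays lay inside the het range, and its difference was -0.04 (SE 0.17, 95% interval -0.42 to 0.35, limma adjusted p = 0.94). All 3 transporters lay near or below the filter. With the values as deposited the differences were -0.34 for Slc45a2, -0.36 for Oca2 and -0.16 for Slc24a5. After median centring they were -0.30, -0.32 and -0.13.

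**Figure D3:**
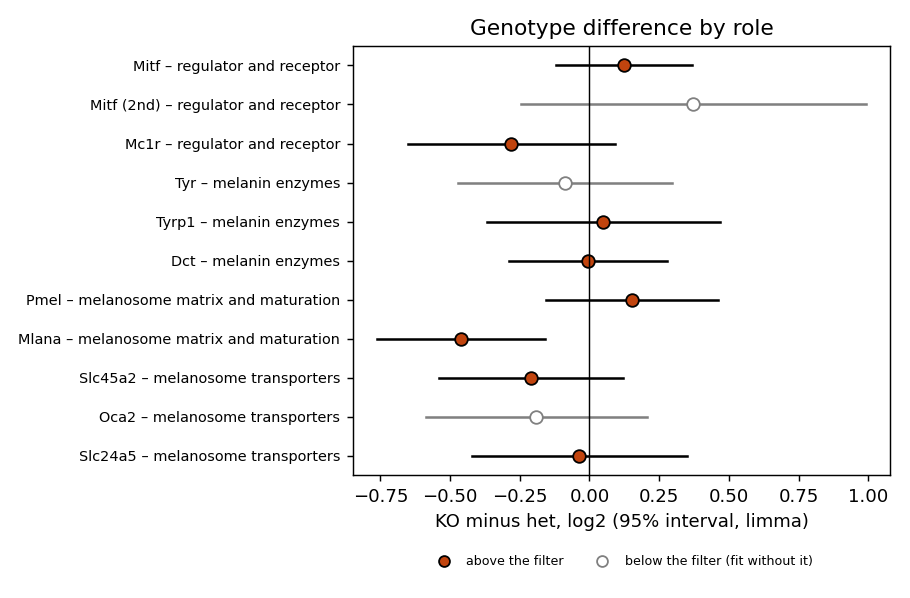
KO minus het log2 difference of each pigment gene probe set with its 95% limma interval, ordered by role from the regulator at the top to the transporters at the bottom. Open points lie below the filter and come from the fit without it. The interval of Mlana, -0.76 to -0.16, is the one that leaves out 0.

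Of the 8 pigment genes above the filter, 1 had an unadjusted p under 0.05, where 17.9% of all tested probe sets did (11.6% higher and 6.38% lower in KO), and that gene was Mlana, on the lower side. The groups did not overlap for 4 of the 8, with Mitf above and Mc1r, Mlana and Slc45a2 below, while 49.8% of all tested probe sets did not overlap either (27.8% with KO above and 22.1% with KO below). By role, the median difference over all genes present was -0.08 for the regulator Mitf with the receptor Mc1r, -0.0046 for the 3 enzymes, -0.15 for Pmel with Mlana and -0.19 for the 3 transporters. The median was -0.06 over the 10 genes and -0.0070 over all probe sets with 1 symbol. The 2 genes of the first role had opposite signs, so their median stands for neither. After median centring the first of these medians was 0.0034 and that of the enzymes 0.15, and with the values as deposited that of the enzymes was 0.11. That of the transporters went the other way, to -0.30 after median centring and -0.34 as deposited. With 1 array left out these medians moved widely. Regulator and receptor ran from -0.20 without het array 2 to 0.04 without het array 1. The enzymes ran from -0.13 without het array 1 to 0.12 without het array 2. Pmel with Mlana ran from -0.26 without KO array 2 to -0.05 without KO array 1, and the transporters ran from -0.26 without het array 1 to -0.069 without het array 2.

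In 7 of the 10 genes the larger gap between 2 arrays of a genotype exceeded the difference between the genotypes, and the exceptions were Mitf, Mlana and Slc45a2. The same held for 67.1% of all 21789 probe sets with 1 symbol. In the 5 genes Tyr, Tyrp1, Dct, Oca2 and Slc24a5 array 2 lay above array 1 in both genotypes, as did 18% of all probe sets with 1 symbol. For Tyrp1 the gap was 0.30 in KO and 0.60 in het, and for Dct it was 0.15 in KO and 0.26 in het. The labels do not say that the number marks a pair. In 6 of the 10 the sign held whichever array was left out, as in 59.8% of all probe sets with 1 symbol. The genes whose sign turned were Tyrp1, Dct, Pmel and Slc24a5.

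**Figure D4:**
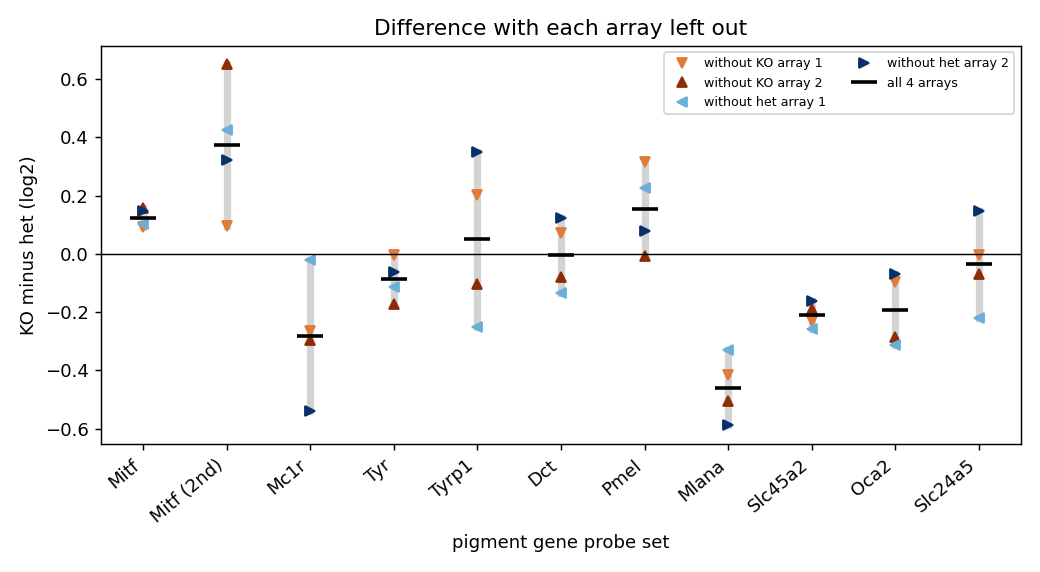
KO minus het log2 difference of each pigment gene probe set with all 4 arrays (black bars) and with each array left out in turn (triangles), with grey bands for the range. Mlana stays between -0.59 and -0.33, and Tyrp1 runs from -0.25 to 0.35.

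Genes that specify melanocytes and their stem cells gave no call. All 17 genes of this list lay above the filter, 8 with a positive and 9 with a negative difference, with a median of -0.00034 against 0.02 over all tested probe sets. That median ran from -0.11 without KO array 1 to 0.07 without KO array 2. None had an adjusted p under 0.05, and 1 had an unadjusted p under 0.05, where 17.9% did overall. Sox10, the factor that induces Mitf, read 8.20 and 8.11 in KO, against 8.39 and 8.12 in het. Pax3, which acts with Sox10, read 7.18 and 7.27 in KO, against 7.28 and 7.10 in het. Kit, the receptor for the survival signal Kitl, read 7.96 and 7.76 in KO, against 7.86 and 7.88 in het, so the KO arrays enclosed the het arrays.

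Ednrb, the endothelin receptor of the lineage, read 8.54 and 8.45 in KO, against 8.44 and 8.28 in het, a difference of 0.13 (SE 0.12, limma adjusted p = 0.59). The values furthest below 0 were those of Zeb2, a zinc-finger factor of the lineage (-0.35, SE 0.12, limma adjusted p = 0.16), and Snai2 (-0.26, SE 0.12). On the positive side stood Tfap2a (0.24, SE 0.12) and Sox5 (0.15, SE 0.13), both transcription factors. Zeb2, Snai2 and Tfap2a are also expressed by other cells of the skin.

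Signals that reach melanocytes from keratinocytes and the dermis gave no call either. Of 14 genes 13 were in the table and 11 were tested, 0 with an adjusted p under 0.05 and 3 with an unadjusted p under 0.05 (Tgfb2 with a positive difference, Kitl and Corin with negative ones), where 17.9% of all tested probe sets had one (11.6% higher and 6.38% lower in KO). The median of the list was -0.0069, and it ran from -0.06 without het array 2 to 0.09 without het array 1. Tgfb2, a transforming growth factor beta of the kind that keeps melanocyte stem cells quiescent, read 9.15 and 9.05 in KO, against 8.74 and 8.48 in het. Both KO arrays lay above both het arrays, and the difference was 0.49 (SE 0.12, limma adjusted p = 0.08). Without het array 2 the difference was 0.36.

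Kitl, the ligand of Kit, read 8.30 and 8.22 in KO, against 8.55 and 8.47 in het. Both KO arrays lay below both het arrays, with a difference of -0.25 (SE 0.11, unadjusted p = 0.048, limma adjusted p = 0.27). Corin, a protease that limits agouti signalling, read 7.40 and 7.20 in KO, against 7.67 and 7.71 in het, with a difference of -0.39 (SE 0.13, limma adjusted p = 0.15). Edn3, a ligand of Ednrb, differed by -0.0069, and Pomc, the precursor of melanocortin, by -0.16 below the filter. Agouti, the antagonist of MC1R, listed in the table under its older symbol, differed by -0.04 (SE 0.14); C57Bl6 mice carry the nonagouti allele.

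Genes that build and move melanosomes, many of which serve lysosomes in every cell, had a median of 0.04 over the 33 of 37 that were tested. Of these 22 had a positive and 11 a negative difference, 0 had an adjusted p under 0.05, and 2 positive and 1 negative had an unadjusted p under 0.05, where 17.9% of all tested probe sets did. Over all tested probe sets 8852 had a positive and 7489 a negative difference. The median of the list was 0.01 without KO array 1 and 0.12 without het array 1. Trpv2, an ion channel, differed by 0.33 (SE 0.13, limma adjusted p = 0.24), Atp7a, the copper pump that supplies tyrosinase, by 0.25 (SE 0.11), and Hps5, of the BLOC-2 complex, by 0.27 (SE 0.12). Tmem163 differed by -0.36 (SE 0.14, limma adjusted p = 0.21), Myo5a, the myosin that carries melanosomes, by -0.21 (SE 0.11), and Lyst by -0.13 (SE 0.11). The MITF paralogs Tfeb and Tfe3 differed by 0.11 (SE 0.11) and -0.08 (SE 0.13), and Tfec lay below the filter.

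Pigment production follows hair growth, so genes of the growing hair matrix and shaft were read in the same arrays. Of 20 genes 18 were in the table and 16 tested, with a median of -0.0022 and 0 at an adjusted p under 0.05. The median ran from -0.11 without KO array 1 to 0.08 without KO array 2. Foxn1, a factor of the hair shaft, differed by -0.39 (SE 0.13), Dlx3 by -0.25 (SE 0.11) and the hair keratin Krt31 by -0.15 (SE 0.14). Krt71, an inner root sheath keratin, differed by 0.40 (SE 0.18) and Gsdma by 0.26 (SE 0.14). The summed linear signal of the 18 genes in the table was 3907 and 3435 in KO, against 3695 and 3453 in het, so the groups overlapped. No array of a growing follicle was compared, so the values do not measure how far pigment genes are reduced in telogen.

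Other cells of skin express some of the same genes: mast cells express Kit and Mitf, macrophages express Gpnmb and Mitf family members, and Schwann cells express Sox10. The mast cell list had a median of -0.13 over the 7 of 10 genes tested. Its summed linear signal, over all 10 genes, was 3980 and 4075 in KO, against 4874 and 4048 in het. The brightest of them was Cpa3, at 10.6 and 10.8 in KO, against 11.1 and 10.8 in het. Tpsb2, a mast cell tryptase, differed by 0.35 (SE 0.13), Mrgprb2 by -0.21, Cma1 by -0.13 and Hdc by -0.08. The mast cell median was -0.07 without het array 1. The macrophage list had a median of -0.16 over the 13 of 14 genes tested and a summed signal of 7519 and 8254 in KO, against 9739 and 8222 in het, with Trem2 at -0.49 (SE 0.11), Cd68 at -0.65 (SE 0.16) and Folr2 at -0.28 (SE 0.13). Of the 13 macrophage genes 3 had a positive difference, Mrc1 (0.14) and Itgam (0.13) among them, both named after their values were seen. Both KO arrays lay above the het arrays in 0 of the 13, where 27.8% of all tested probe sets did. Both lay below in 5 of the 13, where 22.1% of all tested probe sets did. The macrophage median was -0.27 without het array 2, -0.07 without het array 1, -0.06 without KO array 1 and -0.06 after median centring.

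The Schwann cell list had a median of 0.04 over the 10 of 14 genes tested. Of these 9 had a positive difference, as did 8852 of the 16341 tested probe sets. Some of the 9 were very small, such as Mbp (1.5e-05) and L1cam (0.0065). The largest were Mag at 0.39 (SE 0.14), Ncam1 at 0.22 (SE 0.11) and Egr2 at 0.17 (SE 0.12). Only Mag, 1 of the 10, had an unadjusted limma p under 0.05, where 17.9% of all tested probe sets did. The Schwann cell median ran from 0.0098 without het array 2 to 0.14 without het array 1. Skeletal muscle genes had a median of 0.52 over 14 genes, 13 with a positive and 1 with a negative difference, and the median was 0.34 without KO array 1. The exception was Myh7, a slow-muscle myosin (-0.73, SE 0.21, limma adjusted p = 0.11), named after its values were seen. Of the 14 genes 3 had a limma adjusted p under 0.05, where 1.98% of all tested probe sets did. They were Casq1 (0.82, SE 0.12), Myh1 (1.32, SE 0.21) and Mylpf (0.84, SE 0.14). No probe set passed that threshold when all probe sets, or those with several symbols, were tested too. The summed signal of the muscle list was 75067 and 62828 in KO, against 46588 and 48564 in het. The part of these cell types in the pigment gene values was not tested, and in whole skin fewer melanocytes and less RNA per melanocyte cannot be told apart.

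**Figure D5:**
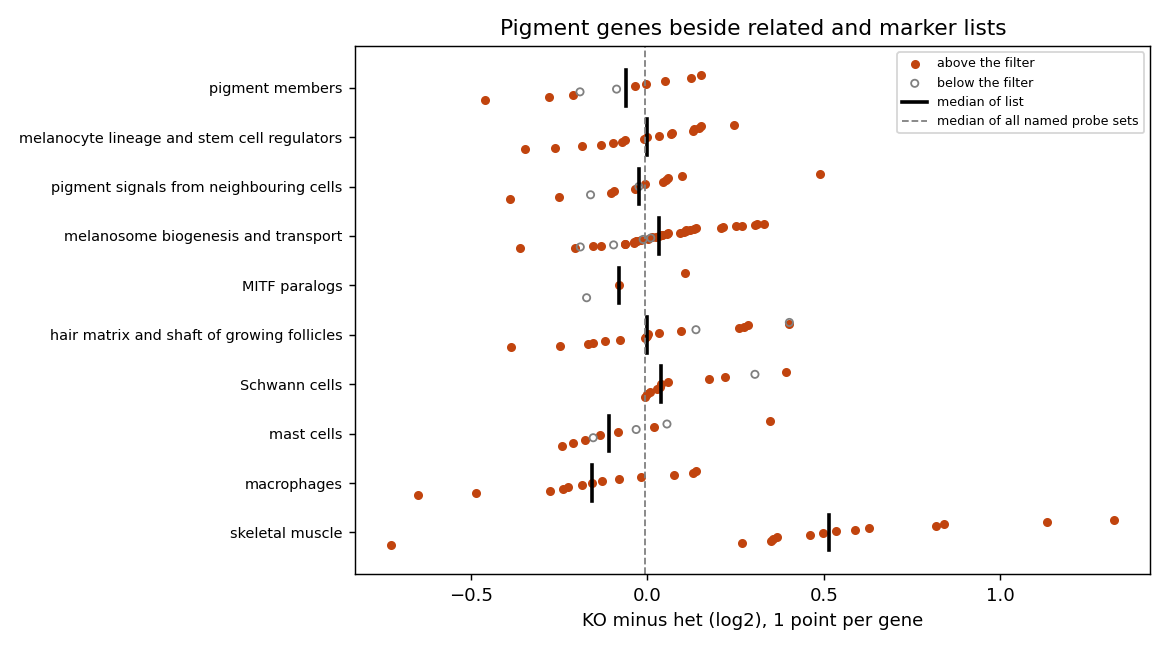
KO minus het log2 difference of each gene, 1 point per gene, for the 10 pigment genes at the top and 9 related or marker lists, with a black bar at the median over all genes of the list in the table, open points included, and a dashed line at the median of all probe sets with 1 symbol. Open points lie below the filter. The pigment genes have a median of -0.06, and skeletal muscle genes stand to the right with a median of 0.52.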

How the data were processed

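Whole-skin RNA of 4 mice (2 KO, 2 het) was measured on Affymetrix whole-transcript arrays. The authors' tools, per the submitters' processing notes, include PLIER 2.0 and Affymetrix Expression Console 1.1.1. The values as deposited are taken to be log2 signals from their range (2.54 to 14.9); the sources used here do not state the scale. Quartiles of the deposited arrays differed by up to 0.34, above the limit of 0.1 set for keeping them, so the arrays were quantile normalized. Symbols came from the platform annotation, updated through the gene identifier for 21698 of 21789 probe sets with 1 symbol; 1621 had several symbols and 12147 none, and none of these was named. Agouti was matched by its gene identifier.

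KO was compared with het by limma 3.58.1 (R 4.3.3), with eBayes allowing the prior variance to follow the mean, with Benjamini-Hochberg adjustment over the 16341 tested probe sets, a threshold of 0.05 and 2 residual degrees of freedom. SEs are limma's moderated ones. The script was checked on simulated data. A list used the brightest probe set per gene. Named were all 10 pigment genes, a set of core lineage and signal genes, and in each list but that of keratinocytes the genes with adjusted p under 0.05 or else up to 3 in each direction with the smallest p and no overlap; a gene named outside this rule is marked in the text. The genes and lists were chosen with earlier results of these data known, and the keratinocyte list was added last. Settings varied were scaling, filter, offset, prior, probe sets tested, replicate block and each array left out. An array has no sequencing depth, and 2 per genotype limit the precision. Promoters are RefSeq sequences of GRCm38.p6; the platform annotation used here names no build.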

Additional observations from a re-analysis of the deposited data

How the results depend on the processing

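Of 157 recomputed differences of the 11 probe sets, over 15 settings where each could be fitted, 148 kept their direction and stayed on their side of the threshold. Changes of filter, prior, probe sets tested or replicate block leave the difference itself unchanged. Its direction could turn only with another scaling, the offset or an array left out, so the count of 148 overstates how firm the directions are. Leaving out 1 array turned Tyrp1 (-0.25 to 0.35), Dct (-0.13 to 0.12), Pmel (-0.0076 to 0.31) and Slc24a5 (-0.22 to 0.15), and Dct also turned with the values as deposited (0.11) and after median centring (0.15). The cause was not tested. With the label's number fitted as a replicate block, the adjusted p of Mlana was 0.037, against 0.064 to 0.47 under its other settings. The labels do not tie the number to a litter or day, and the deviations of same-numbered arrays correlated at 0.167. The count of pigment probe sets with an unadjusted limma p under 0.05 was 1. It was 2 with the values as deposited or median-centred, where Slc45a2 (-0.34 and -0.30) joined Mlana. The count was 0 when probe sets below the 50th percentile, Mlana among them, were left out. Without het array 2 the differences of Mc1r and Tyrp1 were -0.54 and 0.35. The median of the 3 transporters was -0.34 as deposited and ran from -0.26 to -0.069 with an array left out. Over all tested probe sets the 323 calls became 544 as deposited, 913 after median centring, 145 without a filter, 0 with all probe sets, 0 with those of several symbols added (a setting chosen after seeing the data), 1235 with the replicate block and 77 to 986 with an array left out (986 without het array 1, 77 without KO array 1). At an unadjusted p under 0.05, limma gave 3983 with all probe sets and 2713 with those of several symbols added. Signals near background can compress differences, which may limit Tyr, Oca2 and the second Mitf probe set, and this was not tested.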
